A study of Mus musculus with 5 samples.

Results

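The Hox, Sox, Tbx, Pax, Lhx, Irx, Dlx, Nkx, Msx, Meis and Pitx genes, with the sine oculis homeobox genes, encode transcription factors that pattern the embryo. Their transcripts were followed in Langerhans cells, macrophage-like antigen-presenting cells that live in the epidermis. The 129 members are all protein-coding genes of the deposited table whose symbol is one of these family names followed by a number, out of 20983 protein-coding genes and 27179 rows in all. Each library was made from 5000 Langerhans cells purified from skin, from C57BL/6 mice at an age of 1 week. Suz12 cKO mice carried a conditional knockout of Suz12 (3 biological replicates), and wild type mice were their controls (2 biological replicates). No source used here names the Cre driver, the deleted exons or any pooling of animals.

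The protein Suz12 belongs to the core of Polycomb repressive complex 2, which methylates histone H3 at lysine 27 and so helps to keep genes silent. In embryonic stem cells and most differentiated cells the genes of these families, with their CpG-rich promoters, are classic targets of that complex. Hox genes sit in 4 clusters and give positional identity along the body axis, often with Meis and Pbx proteins as DNA-binding partners. In skin, Sox9 and Lhx2 are known from hair follicle stem cells, and Pax3 and Sox10 from the melanocyte lineage.

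Depth ranged from 12090062 counts in Suz12 cKO 3 to 25725900 in Suz12 cKO 2, with both wild type libraries in between. Suz12 itself had 0, 0 and 7 counts in Suz12 cKO, fewer than the 88 and 39 counts in wild type (edgeR adjusted p = 0.999). All 12 Langerhans cell markers were detected in each of the 5 libraries, Cd207 (langerin) at 6639 to 14600 CPM, that is counts per 1000000 after TMM normalisation. Alveolar macrophages are named in the source label, yet 3 of 8 markers of that cell, Siglecf, Car4 and Chil3, were without a count. Of the others, Ear2 and Krt79 made up most of the list's sum of 174.1 to 687.6 CPM, Marco was at 45.7 CPM in wild type 1, Fabp4 at 9.90 CPM in wild type 2 and Pparg at 12.2 CPM in Suz12 cKO 2. At 3 counts, taken as the upper limit for a gene without any, the level is 0.106 CPM in the deepest library and 0.258 CPM in the shallowest. These limits and all intervals given express counting error alone, and PCR copies cannot be recognised in counts per gene.

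Sox9, Irx3 and Nkx2-3 were the members with at least 10 counts in every Suz12 cKO library. Promoter windows of Irx3 and Nkx2-3 were taken from RefSeq on GRCm38.p6, the build also called mm10. The 250 bases before each annotated start of these 2 genes are shown because they are among the members seen throughout the Suz12 cKO libraries, and capitals mark each CG dinucleotide, the letters in which a CpG-rich promoter is dense. The Irx3 window is chr8:91801655-91801904 on the minus strand and the Nkx2-3 window is chr19:43612075-43612324 on the plus strand.
Irx3: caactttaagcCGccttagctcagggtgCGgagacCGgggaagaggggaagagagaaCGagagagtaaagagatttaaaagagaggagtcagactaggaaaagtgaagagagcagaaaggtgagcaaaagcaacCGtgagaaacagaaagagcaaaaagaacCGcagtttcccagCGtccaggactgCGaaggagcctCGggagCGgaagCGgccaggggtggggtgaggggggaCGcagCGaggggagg
Nkx2-3: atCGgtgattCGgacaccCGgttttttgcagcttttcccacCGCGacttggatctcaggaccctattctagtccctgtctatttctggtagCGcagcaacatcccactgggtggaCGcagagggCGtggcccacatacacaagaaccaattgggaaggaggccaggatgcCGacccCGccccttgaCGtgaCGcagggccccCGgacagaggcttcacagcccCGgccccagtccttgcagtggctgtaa
The Irx3 window holds 13 CG, more than 68.5% of the 32851 promoter windows of the table, and the Nkx2-3 window holds 14 CG, more than 70.6% of them. The median window holds 6 CG and 92.1% hold at least 1. Neither window holds TATAAA on either strand, which 12.4% of all windows do.

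Most members had no count. Of the 129 members, 98 had no count in any library and 31 had at least 1, against 56.6% of all protein-coding genes with at least 1 count. At least 10 counts in at least 1 library, the threshold used here for detection, were reached by 22 members (17.1%), against 53.1% of protein-coding genes. No member of the Msx family, and none of the 6 sine oculis homeobox genes, reached it. Of 39 Hox members 7 were detected, of 19 Sox members 4, of 14 Nkx members 1, of 13 Tbx members 2, and of 9 Pax members 1. The 9 members with counts but never 10 were Hoxa3, Hoxb3, Hoxb7, Dlx3, Irx4, Pax2, Pitx1, Six5 and Sox10, with 1 to 8 counts in a library. Over the 645 values of the members (129 genes in 5 libraries), 597 were 0, 12 lay between 1 and 9 counts and 36 were 10 or more, with a median of 97 counts among these 36. Close to the threshold were Tbx3, with 10 counts in Suz12 cKO 3, and Pitx1, with 8 counts in the same library.

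More members were counted as detected in each Suz12 cKO library than in either wild type library. In Suz12 cKO 1, 2 and 3, 9, 8 and 12 members had at least 10 counts, against 5 and 2 members in wild type 1 and 2. The shallowest library, Suz12 cKO 3, had the most. In bulk samples fewer cells of a type and less RNA per cell cannot be told apart. The mean was 9.67 ± 2.08 members in Suz12 cKO and 3.50 ± 2.12 in wild type (SD, n = 3 and n = 2). The exact two-sided permutation test over libraries, which takes 2 times the smaller one-sided p, gave p = 0.2 (0.2 after Benjamini-Hochberg adjustment over 2 quantities). This is the smallest p that this rule allows with 3 libraries against 2. In percent, the members detected were 6.98%, 6.20% and 9.30% in Suz12 cKO and 3.88% and 1.55% in wild type. Over all protein-coding genes the shares were 34.8%, 40.4% and 35% in Suz12 cKO and 37.1% and 38.6% in wild type. The result for Suz12 cKO 2, the deepest library, depended on the threshold. At 1 CPM the numbers were 9, 3 and 11 members in Suz12 cKO and 4 and 2 in wild type, so that the groups overlapped. Within the libraries whose titles contain LC, 9 and 8 members in Suz12 cKO 1 and 2 stood against 5 in wild type 1. Within those titled Langerhans-cell, 12 in Suz12 cKO 3 stood against 2 in wild type 2.

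**Figure D1:**
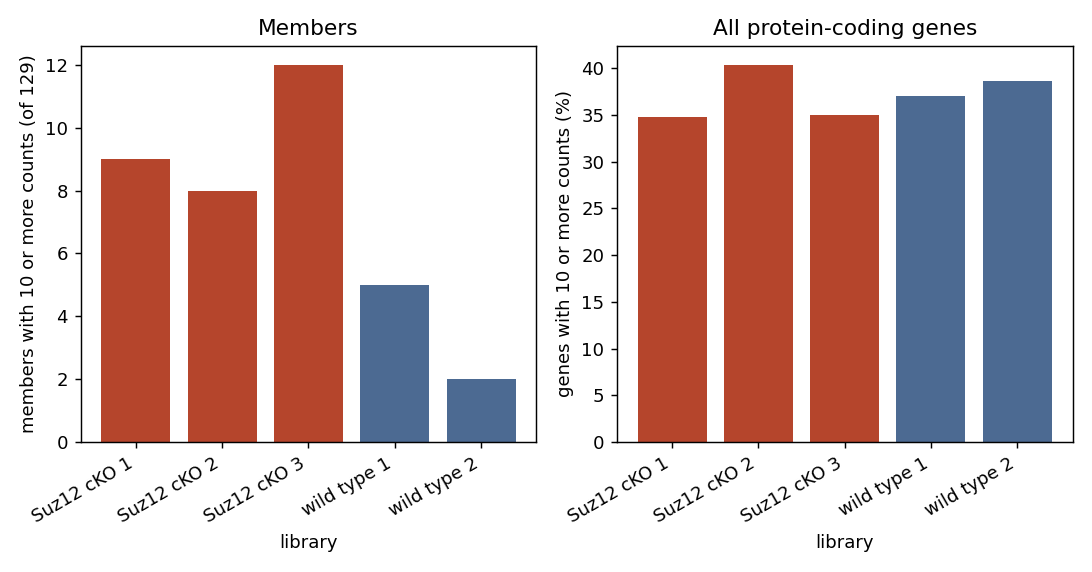
Left, the number of the 129 members with 10 or more counts in each library; right, the percentage of the 20983 protein-coding genes with 10 or more counts. The Suz12 cKO libraries, on the left of each panel, hold 8 to 12 members against 2 to 5 in wild type, while the share of all protein-coding genes lies between 34.8% and 40.4% in every library.

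Summed over all members, the level was 86.6, 33.7 and 92.9 CPM in Suz12 cKO and 15.8 and 28.8 CPM in wild type. The groups did not overlap, although Suz12 cKO 2 lay close to wild type 2. The means were 71.1 ± 32.5 CPM in Suz12 cKO and 22.3 ± 9.20 CPM in wild type (SD, n = 3 and n = 2), with p = 0.2 in the exact permutation test.

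Detected members differed between libraries. In exactly 1 library were 14 of the 129 members (10.9%), a share near the 9.6% of all protein-coding genes. Of the genes detected at all, these were 63.6% of the members and 18.1% of protein-coding genes. Among the 4682 protein-coding genes that were detected somewhere and had no value above 20.8 CPM, the highest value of any member (CPM without regard to gene length), 1877 were detected in exactly 1 library. In all 5 libraries were 0 members, against 22.5% of protein-coding genes. Hoxc8, Meis3 and Tbx1 were detected in 2 libraries (2.33% of members, against 6.89%), Meis1, Nkx2-3, Sox4 and Sox9 in 3 (3.10%, against 6.51%) and Irx3 in 4 (0.775%, against 7.63%). The 14 comprised 13 genes seen in a Suz12 cKO library (4, 3 and 6 in Suz12 cKO 1, 2 and 3) and 1 in wild type 1. Counting any number of libraries, 15 members (11.6%) were detected in Suz12 cKO alone, against 8.14% of protein-coding genes, and 1 member (0.775%) in wild type alone, against 4.76%. The other 6 were detected in both genotypes, a class that holds 40.2% of protein-coding genes. There are 3 Suz12 cKO libraries and 2 wild type libraries, so these counts are not symmetric. Of the same 4682 protein-coding genes, 31.6% were detected in Suz12 cKO alone and 19.5% in wild type alone. For the detected members these shares were 68.2% and 4.55%. The mean number of genes detected per library was 2.76 times as high in Suz12 cKO as in wild type for the members, and 0.945 times for those 4682 genes.

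**Figure D2:**
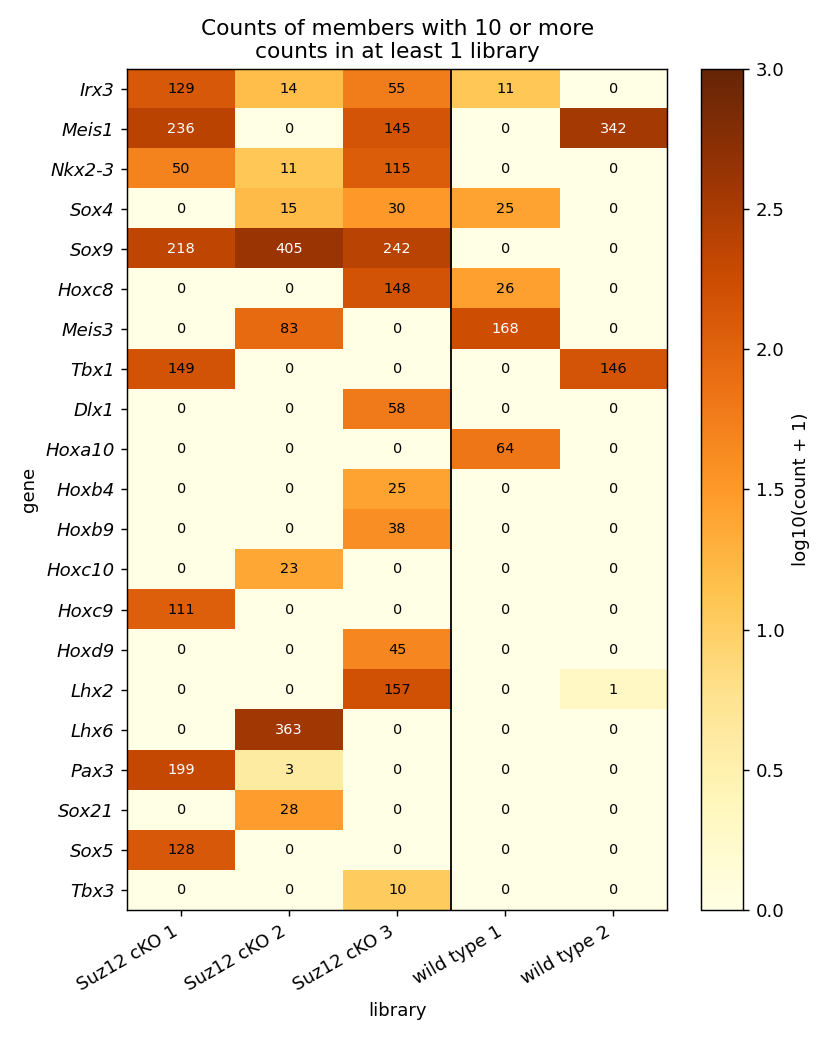
Raw counts of 21 of the 22 members detected in at least 1 library (rows, ordered by the number of libraries) in the 5 libraries (columns, Suz12 cKO left of the black line), coloured by log10(count + 1). Sox9 is filled in all Suz12 cKO libraries and at 0 in both wild type libraries, and 13 of the 21 genes drawn reach 10 counts in a single library.

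Sox9, Irx3 and Nkx2-3, detected in every Suz12 cKO library, made up 2.33% of the members against 25.4% of protein-coding genes. No member reached that in every wild type library, against 30.7%. Sox9 and Nkx2-3 were detected in no wild type library besides. That is 2 members (1.55%), against 0.5% of protein-coding genes, while the converse pattern held for 0 members, against 0.767%. Both also lacked any count in wild type. At least 10 counts in every Suz12 cKO library with no count in wild type was found for 0.3% of protein-coding genes, and the converse for 0.429%. When counts were scaled down to the smallest library, or the threshold was 20 counts or 1 CPM, Sox9 was the 1 member left in every Suz12 cKO library.

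Sox9 encodes an HMG-box factor of cartilage, testis and hair follicle stem cells. It lies on chromosome 11 (112782210 to 112787757 in mm10) and had 218, 405 and 242 counts in Suz12 cKO and 0 and 0 counts in wild type. On the CPM scale this was 13.6 CPM (11.9 to 15.6, exact 95% Poisson interval), 14.3 CPM (13.0 to 15.8) and 20.8 CPM (18.2 to 23.6) in Suz12 cKO. In wild type the upper limits of 0 counts were 0.195 and 0.217 CPM. Suz12 cKO 3 lay above the other two, whose intervals overlapped, and all 3 lay far above the wild type limits. Against a floor of 3 counts over the wild type group, the pooled level in Suz12 cKO was 185-fold higher. This ratio takes the Suz12 cKO counts as they are, without their counting error. It also leaves out the spread between libraries, where Meis1, for example, had 0 and 342 counts within wild type. The ratio was 97.5-fold without wild type 2 and 87.5-fold without wild type 1, where the floor rests on a single library. Per kilobase of gene length, Sox9 in Suz12 cKO lay above 73.6%, 70.3% and 77.2% of protein-coding genes. Most of the genes below it had no count: over the 5 libraries, 61990 of 104915 values of protein-coding genes were 0. Lhx2, with 1 count in wild type 2, already lay above 58.7% there. A cut-off of 13.6 CPM was taken from the lowest Suz12 cKO value of Sox9, which therefore meets it by choice. Sox9 was 1 of 4 protein-coding genes, or 0.0191%, that reached it in every Suz12 cKO library without a count in wild type. The converse, at least that CPM in both wild type libraries and no count in Suz12 cKO, held for 8 genes, or 0.0381%. The difference was present in both title styles, with 13.6 and 14.3 CPM in Suz12 cKO against 0 in wild type among LC titles, and 20.8 CPM in Suz12 cKO against 0 in wild type among Langerhans-cell titles.

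Keratinocyte and hair follicle transcripts lay beside this result. The 15 keratinocyte markers summed to 629.9, 1007 and 861.7 CPM in Suz12 cKO and to 280.7 and 650.5 CPM in wild type, and each of them had a count in some library. Of the 12 tested markers, 10 lay higher in Suz12 cKO and 2 lay lower. Half-way in rank, their fitted log2 fold change (the median) was 1.03, against 0.06 over all tested genes. For 4 of the 12 the groups did not overlap and Suz12 cKO was higher, a pattern of 8.87% of all tested genes. None of the 12 was called by edgeR. Krt14, a basal keratin with the highest mean CPM of that list, lay at 133.8, 214.8 and 144.1 CPM in Suz12 cKO and at 89.5 and 235.3 CPM in wild type. Krtdap, of differentiating keratinocytes, lay at 123.6, 144.8 and 336.5 CPM in Suz12 cKO and at 45.4 and 76.8 CPM in wild type. Suz12 cKO 1 and wild type 2 had nearly the same keratinocyte sum, 629.9 and 650.5 CPM, with Sox9 at 13.6 and 0 CPM. The make-up of these sums differed, with Krt14 higher in wild type 2 and Krtdap higher in Suz12 cKO 1. Of 4 hair follicle markers outside the families, Shh had no count anywhere, and the others summed to 0.188, 9.84 and 0 CPM in Suz12 cKO and 2.38 and 21.1 CPM in wild type. Krt27 lay at 0.0626, 0.248 and 0 CPM in Suz12 cKO and at 0 and 19.98 CPM in wild type, and Krt25 at 0.125, 9.59 and 0 CPM in Suz12 cKO and at 2.38 and 0.354 CPM in wild type. The part of these transcripts in the level of Sox9 was not tested.

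**Figure D3:**
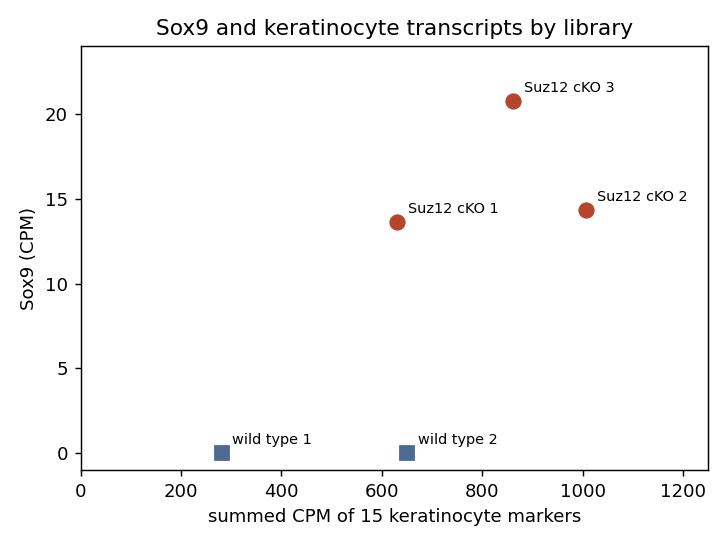
Sox9 in CPM (vertical axis) against the summed CPM of 15 keratinocyte markers (horizontal axis) in each library, with Suz12 cKO as circles and wild type as squares. Sox9 is at 0 in both wild type libraries. The keratinocyte sums are 629.9, 1007 and 861.7 CPM in Suz12 cKO and 280.7 and 650.5 CPM in wild type.

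Nkx2-3, a homeobox factor needed for the spleen and for gut-associated lymphoid tissue, had 50, 11 and 115 counts in Suz12 cKO and 0 and 0 counts in wild type. This came to 3.13, 0.389 and 9.87 CPM in Suz12 cKO. The exact Poisson interval in Suz12 cKO 2 (0.194 to 0.697 CPM) reached down to the upper limits in wild type, 0.195 and 0.217 CPM, so the groups were separate by counts but only narrowly. The pooled level in Suz12 cKO was 37.6-fold higher than the floor of 3 counts over wild type, again without the counting error in Suz12 cKO. Most of this rests on Suz12 cKO 3: the ratio was 16.5-fold without that library, 71.4-fold without Suz12 cKO 2, 17.8-fold without wild type 1 and 19.8-fold without wild type 2. Nkx2-3 (chromosome 19, 43612325 to 43615892) is known from endothelium. Of 6 endothelial markers outside the families, Tek, Kdr, Cdh5 and Emcn had no count anywhere. Egfl7 lay at 5.94, 0 and 10.99 CPM in Suz12 cKO and at 0 and 0 CPM in wild type. The 6 summed to 5.94, 0 and 15.7 CPM in Suz12 cKO and to 0 and 0 CPM in wild type, and the part of endothelial RNA was not tested. The endothelial members Sox7, Sox17 and Sox18 had no count in any library.

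Irx3, an Iroquois homeobox factor of neural tube and limb patterning (chromosome 8, 91798511 to 91801654), had 129, 14 and 55 counts in Suz12 cKO and 11 and 0 counts in wild type. At 8.07, 0.496 and 4.72 CPM in Suz12 cKO against 0.582 and 0 CPM in wild type, Suz12 cKO 2 lay below wild type 1 and the groups overlapped.

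Among the 39 Hox members, 10 had a count in some library and 7 were detected, each in 1 library except Hoxc8. The numbers detected were 1, 1 and 4 in Suz12 cKO and 2 and 0 in wild type, and the Hox sum was 7.07, 0.814 and 22.2 CPM in Suz12 cKO and 4.82 and 0 CPM in wild type. Suz12 cKO 3 held most of it, and Suz12 cKO 2 lay below wild type 1. Hoxc8, of the trunk, had 0, 0 and 148 counts in Suz12 cKO and 26 and 0 counts in wild type. Its neighbours Hoxc9 and Hoxc10 were each found in another library, Hoxc9 with 111 counts in Suz12 cKO 1 and Hoxc10 with 23 counts in Suz12 cKO 2. Suz12 cKO 3 alone held Hoxb4, a factor of blood stem cells, with 25 counts, Hoxb9 with 38 counts and Hoxd9 with 45 counts. In wild type 1 alone was Hoxa10, known from blood progenitors and the uterus, with 64 counts. Hoxb4 lies within the annotated span of Hoxb3, and the use of strand is not given, so reads of overlapping Hox transcripts are uncertain. Of 12 antisense or cluster long noncoding RNAs looked for, 8 were matched and had no count in any library.

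Meis1 and Meis3, TALE homeobox partners of Hox proteins, were detected in both genotypes. Meis1, of blood stem cells, had 236, 0 and 145 counts in Suz12 cKO and 0 and 342 counts in wild type. Each group thus held a library at 0 and a library above 12 CPM (14.8, 0 and 12.5 CPM in Suz12 cKO, 0 and 20.2 CPM in wild type). Meis3 had 0, 83 and 0 counts in Suz12 cKO and 168 and 0 counts in wild type, and was present exactly where Meis1 was absent. Tbx1, a T-box factor of the pharyngeal arches, had 149, 0 and 0 counts in Suz12 cKO and 0 and 146 counts in wild type. Sox4, of the SoxC group and needed in lymphocyte development, had 0, 15 and 30 counts in Suz12 cKO and 25 and 0 counts in wild type. These 4 genes overlapped between the genotypes.

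Other members were detected in 1 Suz12 cKO library each. In Suz12 cKO 1 these included Pax3, a neural crest and melanocyte factor, with 199 counts, and the cartilage factor Sox5 with 128 counts. Suz12 cKO 2 held Lhx6, known from cortical interneurons, with 363 counts, and Sox21 with 28 counts, and it had 3 counts of Pax3. Suz12 cKO 3 held Lhx2 with 157 counts, the forebrain gene Dlx1 with 58 counts and Tbx3 with 10 counts. Wild type 2 had 1 count of Lhx2, and Pax3, Sox5, Lhx6, Sox21, Dlx1 and Tbx3 had none in wild type. The 6 melanocyte markers outside the families summed to 49.7, 33.1 and 144.8 CPM in Suz12 cKO and to 39.6 and 428.6 CPM in wild type. Dct, with the highest mean CPM of them, lay at 3.94, 4.35 and 76.3 CPM in Suz12 cKO and at 25.4 and 177.3 CPM in wild type. Pmel lay at 28.1, 11.5 and 29.5 CPM in Suz12 cKO and at 12.4 and 57.3 CPM in wild type. Sox10 had 2, 0 and 1 counts in Suz12 cKO and none in wild type. The part of melanocyte RNA in the level of Pax3 was not tested.

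**Figure D4:**
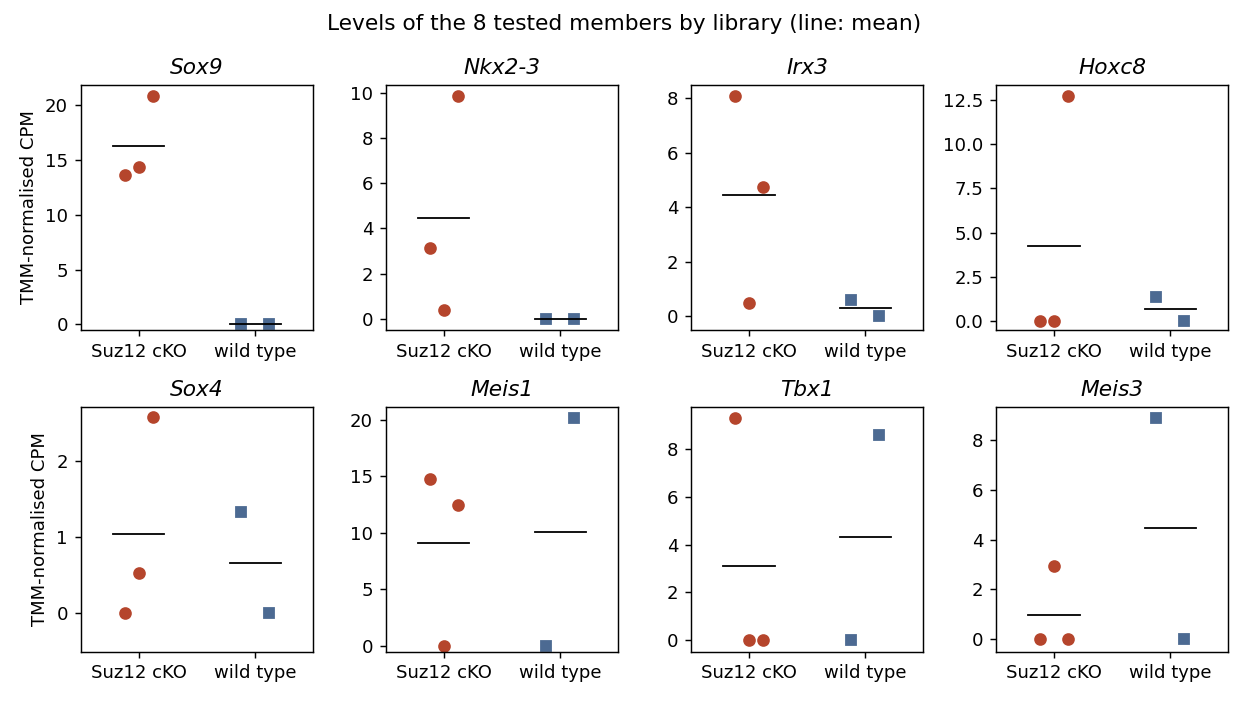
TMM-normalised CPM of the 8 members with enough counts to test, with Suz12 cKO libraries as circles, wild type libraries as squares and the group mean as a line; each panel has its own linear scale. Sox9 and Nkx2-3 are the panels in which all 3 Suz12 cKO libraries lie above both wild type libraries.

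The test of genotype was edgeR's quasi-likelihood F test over 9988 genes, with Benjamini-Hochberg adjustment over all of them. Only 8 members had enough counts to enter it. Of these, 0 were called higher and 0 lower at an adjusted p of 0.05, as for all genes (0% called), and 1 member, Sox9, had an unadjusted p under 0.05, against 4.15% of tested genes in either direction and 2.1% that lay higher. The groups did not overlap for 2 members, both higher, against 8.87% of tested genes that were higher and 10.2% that were lower. Sox9 and Nkx2-3 entered the test through Suz12 cKO libraries alone, so their share among the 8 is not a measure of the families. Sox9 averaged 16.3 ± 3.93 CPM in Suz12 cKO and 0 CPM in wild type (SD, n = 3 and n = 2). The fit gave a log2 fold change of 11.22 (standard error 3.30, edgeR adjusted p = 0.968), which depends on the prior count and is no measured fold. DESeq2, run as an alternative, called Sox9 higher with an adjusted p of 0.000557. It called 1.91% of tested genes, 1.37% higher and 0.541% lower, and Sox9 was the 1 member among them. Nkx2-3 averaged 4.46 ± 4.88 CPM in Suz12 cKO and 0 CPM in wild type, with a fitted log2 fold change of 9.36 (standard error 3.85, edgeR adjusted p = 0.968, DESeq2 adjusted p = 0.265). Irx3 averaged 4.43 ± 3.80 CPM in Suz12 cKO and 0.291 ± 0.412 CPM in wild type, with a log2 fold change of 3.89 (standard error 3.23, edgeR adjusted p = 0.999). The other 5 had log2 fold changes between -2.17 (Meis3) and 2.61 (Hoxc8), each smaller than its standard error.

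**Figure D5:**
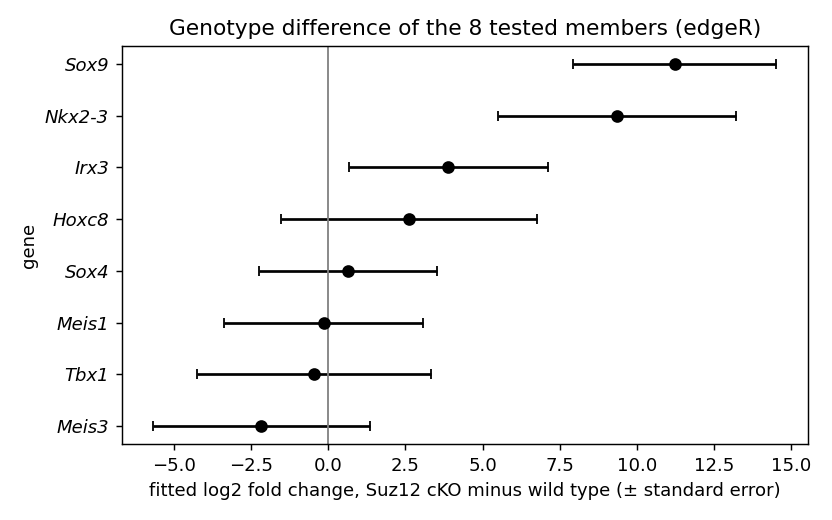
Fitted log2 fold change of the 8 tested members (Suz12 cKO minus wild type, edgeR) with its standard error as horizontal bars; the grey line marks no difference. Sox9, at 11.22, and Nkx2-3, at 9.36, are fits against a wild type group without counts, and 5 of the 8 bars cross the line.

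Genes whose products work with these factors had counts in most cases, and edgeR called 0 of them in either direction. Of 8 TALE partners of Hox proteins 4 were tested, 2 higher and 2 lower. Their median log2 fold change was -0.11, against 0.06 over all tested genes. Tgif1 lay at 110.7, 182.8 and 89.0 CPM in Suz12 cKO and at 179.8 and 132.8 CPM in wild type, and Pknox1 at 28.6, 0 and 23.4 CPM in Suz12 cKO and at 15.4 and 17.5 CPM in wild type. For the cofactors of LIM homeobox proteins, 7 of 9 were tested, 4 higher and 3 lower, with a median of 0.16. Ssbp2 was higher in every Suz12 cKO library, at 23.5, 19.5 and 14.0 CPM, than in wild type, at 5.66 and 0 CPM (edgeR adjusted p = 0.999). Of all tested genes, 8.87% lay higher in this way. Ssbp3 lay at 46.1, 52.9 and 86.3 CPM in Suz12 cKO and at 49.2 and 45.0 CPM in wild type, and Lmo2 at 9.57, 111.1 and 36.9 CPM in Suz12 cKO and at 26.1 and 29.1 CPM in wild type. Among the Groucho corepressors 5 of 6 were tested, 2 higher and 3 lower, with a median of -0.0047. Tle4 and Tle6 were lower in every Suz12 cKO library than in either wild type library, as were 10.2% of all tested genes. Tle6 lay at 0, 0 and 0 CPM in Suz12 cKO against 10.2 and 13.1 CPM in wild type (edgeR adjusted p = 0.968). Tle5 had the highest mean CPM, at 88.7, 162.8 and 94.1 CPM in Suz12 cKO and 105.2 and 97.2 CPM in wild type, and Tle1 lay at 1.88, 34.0 and 9.44 CPM in Suz12 cKO and at 10.5 and 4.54 CPM in wild type. Of 6 Eya and Dach genes, whose products partner sine oculis and Pax proteins, only Eya3 was tested, at 1.38, 0.212 and 20.1 CPM in Suz12 cKO and 21.2 and 0 CPM in wild type, and Eya2 had 1 count in wild type 1.

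Other developmental regulators known as Polycomb targets in embryonic stem cells were scarce too. Of 36 such genes outside the families, 30 had no count in any library, and 2, 2 and 1 were detected in Suz12 cKO against 0 and 1 in wild type. They summed to 18.0, 9.88 and 4.04 CPM in Suz12 cKO and to 0 and 0.943 CPM in wild type, without overlap. En2, a homeobox gene of the midbrain and hindbrain, lay at 17.1, 0 and 3.78 CPM in Suz12 cKO and at 0 and 0 CPM in wild type. Foxa1, a pioneer factor of endoderm, lay at 0, 9.13 and 0 CPM in Suz12 cKO and at 0 and 0 CPM in wild type. The 2 tested genes of this list, En2 and Foxc1, both had a fitted log2 fold change above 0 and neither was called (edgeR adjusted p = 0.968 and 0.999). For Foxc1 it was only 0.15 (standard error 2.59). Foxc1 lay at 0.813, 0.743 and 0 CPM in Suz12 cKO and at 0 and 0.943 CPM in wild type, so the groups overlapped.

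Markers of other cells in skin were present as well, and edgeR called 0 of them. The 8 fibroblast markers summed to 3.82, 57.7 and 195.4 CPM in Suz12 cKO and to 25.2 and 118.0 CPM in wild type, with the highest mean CPM in Dcn and Col3a1 and Pdgfra without a count. Dcn lay at 0.188, 14.8 and 136.3 CPM in Suz12 cKO and at 0 and 17.2 CPM in wild type. The highest fibroblast sum was in Suz12 cKO 3, which also held the most Hox transcripts. Next came wild type 2, where the Hox sum was 0 CPM. Suz12 cKO 1 had the lowest fibroblast sum and a Hox sum of 7.07 CPM. The part of fibroblast RNA in the Hox sum was not tested. Of T cell genes, Cd3g had the highest mean, at 539.9, 149.0 and 125.6 CPM in Suz12 cKO and 360.3 and 303.6 CPM in wild type, followed by Cd2 at 89.4, 42.7 and 68.3 CPM in Suz12 cKO and 69.2 and 72.5 CPM in wild type. Of 9 tested T cell markers 7 lay lower and 2 higher. The groups did not overlap for Cd3d and Trbc1, both lower, a pattern of 10.2% of all tested genes. Cd3d lay at 41.8, 21.8 and 35.2 CPM in Suz12 cKO and at 105.8 and 67.6 CPM in wild type (edgeR adjusted p = 0.968), and Trbc1 at 1.44, 3.01 and 0 CPM in Suz12 cKO and at 4.18 and 23.9 CPM in wild type (edgeR adjusted p = 0.999). The 11 T cell markers summed to 788.1, 291.6 and 273.5 CPM in Suz12 cKO and to 690.1 and 520.4 CPM in wild type, and the T cell factors Tbx21 and Sox13 had no count in any library. Mast cell markers summed to 0, 5.81 and 2.23 CPM in Suz12 cKO and to 0.106 and 2.24 CPM in wild type, with Cpa3, Cma1, Mcpt4 and Tpsb2 at 0, Gata2 the whole of the Suz12 cKO sums and Kit the whole of the wild type sums. Among the 11 members with a textbook role in blood cells, Hoxa7, Hoxa9, Pax5, Sox13 and Tbx21 had no count, and the others are given above apart from Hoxb3, with 1 count in wild type 1.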

How the data were processed

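Poly(A) RNA of 5 libraries from an ultra-low-input protocol was sequenced as paired 75 bp reads, per the labels' protocols and the design text. Values deposited by the authors are raw counts per gene. The submitters' processing notes name featureCounts and mm10, and no source used here states the aligner, versions, strand setting or treatment of reads with several matches. Files per sample equalled the series table. RefSeq on GRCm38.p6 gave a symbol to 25275 of 27179 identifiers; the 1904 without one held 1.46% to 2.30% of counts and stayed in the fit. The deposited gene length gave CPM per kilobase.

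The test was edgeR 4.0.16 in R 4.3.3 (filterByExpr at a minimum count of 10, TMM, robust quasi-likelihood fit, group only); the standard error is the log2 fold change over the square root of F. Alternatives used DESeq2 1.42.0 and limma 3.58.1. Scripts were tested on simulated counts with known changes, at fixed dispersions that were not taken from the members. No p-value reflects more than variation among these libraries. Exact permutation tests used scipy 1.17.1; figures used matplotlib 3.10.9.

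The members and lists were chosen with earlier results of these data known. The text names members with at least 10 counts in every library of a genotype, tested members with separate groups, the 5 with the smallest p, and up to 2 genes of each list with the highest mean CPM; other names (members seen in 1 to 3 libraries, Cd207, Marco, Fabp4, Pparg, Cd3d, Trbc1, Ssbp2, Tle4, Tle6, Foxc1, genes without counts) were chosen after seeing values. In the lists, 5 symbols were unmatched. Promoter windows existed for 86 of 129 members (66.7%, under 80%), so a comparison of CpG over the members was void. For 1 detected member the values are not reported here; it stays in the counts and sums.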

Additional observations from a re-analysis of the deposited data

How the results depend on the processing

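With 2 wild type libraries and values that are often 0 in one library and above 100 counts in another, depth and library number limit every comparison; no interval here covers the loss of molecules before amplification. Over 13 alternatives with edgeR or limma, 1 of them (edgeR without its legacy setting) chosen after seeing the data, 0 members were called in either direction, and with DESeq2 1 was called higher, Sox9, whose adjusted p ranged from 0.000557 to 1. The numbers detected in every Suz12 cKO library, and in every Suz12 cKO and no wild type library, were each 1 (Sox9) at 20 counts, with counts scaled to the smallest library and at 1 CPM. Leaving out a library gave 3 to 4 and 2 to 3; the converse pattern ranged from 0 to 1 (Hoxa10, without wild type 2). Suz12 cKO 2 had 5 members at 20 counts, 5 with scaled counts and 3 at 1 CPM. The difference in summed CPM ranged from 37.8 to 67.4 over the libraries left out, against 48.7. Directions turned for Hoxc8 (-4.79 with the replicate block, -4.94 with title style as a term), Sox4 (-0.63 with the block, -0.27 with title style) and Meis1 (1.34 with limma-voom, 4.05 with title style). Leaving out a library gave -1.15 to 10.38 for Meis1, -3.12 to 7.17 for Meis3, -1.24 to 7.24 for Sox4 and -1.46 to 8.82 for Tbx1. Irx3 kept its direction in all settings in which it was tested; for Sox9 and Nkx2-3, without a count in wild type, no setting could turn it. The cause of the changes was not tested. The replicate numbers pair the libraries only by number (deviations of same-numbered libraries correlated at -0.0234 and -0.00516); with the replicate block 0 members and 1 gene in all were called, against 0.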
